A study of Mus musculus with 26 samples.

Results

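The epithelium described here came from the proximal small intestine of mice in which Smad1 and Smad5 had been deleted together, 30 days after the first tamoxifen injection. It is called iDKO (inducible double knockout) below. The 2 iDKO libraries were set against the 5 control libraries that share their table, 7 of the 26 libraries of the series, and all genes with an FPKM (fragment counts scaled to gene length and library size) of at least 1 in 2 or more of those 7 libraries were tested. That left 11785 of 15653 genes. Deletion was driven by Villin-CreERT2, a recombinase expressed from the Villin promoter in intestinal epithelial cells and active once tamoxifen is given. The iDKO mice carried the Cre and received tamoxifen by intraperitoneal injection on 4 consecutive days. Controls 1 and 2 came from the same SMAD1/5 line and received tamoxifen, which by the labels' protocol makes them Cre-negative. Controls 3 to 5 came from the SMAD1/4/5 line, carried the Cre and received corn oil in place of tamoxifen. How the alleles were built is not given in the sources used here. Controls were described as littermates matched for sex. Controls 3 to 5 came from another line than iDKO, so the comparison with all 5 controls is not one of littermates throughout. Y-linked RNA was detected in only some libraries of the iDKO and control groups, as given below. Active Cre is present in the knockouts and in none of the controls, so Cre activity and gene deletion cannot be told apart. Where stated, the iDKO values are set beside 3 libraries of Smad1, Smad4 and Smad5 triple knockout (iTKO) at the same day. The iTKO mice came from the SMAD1/4/5 line and received tamoxifen. A separate table held 3 iDKO and 3 control libraries taken 6 days after the first injection. Both of these day 6 groups came from the SMAD1/5 line and received tamoxifen. The ages of the mice and whether each library was 1 mouse are not given in the sources used here. If libraries share animals, the p-values below measure technical spread only.

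Bone morphogenetic proteins (BMPs) are secreted by the stroma under the villi and bind receptor pairs on epithelial cells, which phosphorylate SMAD1 and SMAD5. These bind SMAD4, enter the nucleus and switch on targets such as the Id genes. TGF-beta and activin use SMAD2 and SMAD3 with the same SMAD4, so the BMP arm and the TGF-beta arm share 1 partner. BMP signalling is strong along the villus and low in the crypt, where antagonists block it, and it is known to restrain stem cells and to shape enterocytes as they climb the villus.

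Approximate depths, read from the spacing of the FPKM values, were 18.1 and 15.8 megafragments in iDKO, against 13.1 to 16.6 megafragments in controls. All 12 intestinal epithelium markers listed passed the filter, with summed levels of 16060 and 14590 FPKM in iDKO, against 11320 to 12090 FPKM in controls. Summed mesenchymal and endothelial markers reached 22.2 and 12.9 FPKM in iDKO, against 15.1 to 17.7 FPKM in controls. Between the controls of the 2 lines, 2 genes (0.017%) passed the threshold and 622 (5.28%) at an unadjusted limma p under 0.05. Smad4 stood at 135 and 137 FPKM in iDKO, against 128 to 163 FPKM in controls. Smad1 did not pass the test, with 28.4 and 27.1 FPKM in iDKO, against 27.8 to 38.4 FPKM in controls (log2 -0.25 ± 0.16, limma adjusted p = 0.33). Smad5 was higher, with 26.9 and 31.8 FPKM in iDKO, against 14.4 to 16.9 FPKM in controls (log2 0.86 ± 0.09, limma adjusted p = 2.2e-04). Gene-level FPKM can include exons outside a deletion and does not check it, so the iDKO name rests on the labels.

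Against all 5 controls 1127 genes (9.56%) rose and 1114 (9.45%) fell at a Benjamini-Hochberg adjusted limma p under 0.05, of which 335 and 423 changed by more than 2-fold. Log2 changes are given throughout as iDKO minus control on the log2(FPKM + 0.5) scale with their standard error (SE), which understates the change of weakly expressed genes. Of the 2241 genes called, 2225 had no overlap between the iDKO and control values, a pattern seen in 34.9% of all genes tested. Of the genes in the lists below, 17 passed the filter only through the iDKO libraries and 28 only through the controls, which fixes the side on which such a gene is high. Against the 2 tamoxifen controls alone, 653 genes (5.54%) rose and 634 (5.38%) fell. All 2241 kept the sign of their change there. For the 2225 without overlap that was fixed in advance, because these 2 controls are among the 5. Of the 2241, 1211 also passed the test there. Without iDKO 1 the counts were 445 higher and 428 lower.

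BMP response genes were low weeks after the deletion. Of 17 listed BMP response genes, 8 passed the filter on low values, of which 0 rose and 7 fell, while 1 did not pass the test (median log2 -1.80). Bambi, 1 of the 7, passed the filter only through the controls, which fixes its side. Id1, Id2 and Id3 encode helix-loop-helix proteins that block the binding of basic helix-loop-helix factors to DNA. Id1 stood at 21.4 and 7.70 FPKM in iDKO, against 51.2, 56.7, 51.8, 50.7 and 55.2 FPKM in controls. Both iDKO libraries lay under every control, iDKO 2 the lower, and the fall came to log2 -1.998 ± 0.29, limma adjusted p = 0.0010. Id2 stood at 4.11 and 3.36 FPKM in iDKO, against 16.2, 21.1, 22.6, 18.3 and 18.01 FPKM in controls. It was low to a like degree in both iDKO libraries (log2 -2.22 ± 0.16, limma adjusted p = 2.4e-05). Id3 stood at 25.0 and 12.3 FPKM in iDKO, against 63.8 to 84.7 FPKM in controls (log2 -2.09 ± 0.35, limma adjusted p = 0.0025), again with iDKO 2 under iDKO 1. Among the inhibitory SMADs, Smad6 stood at 5.48 and 3.90 FPKM in iDKO, against 13.2 to 25.6 FPKM in controls (log2 -1.89 ± 0.30, limma adjusted p = 0.0019). Smad7 fell less, to 27.8 and 22.8 FPKM in iDKO, against 30.0 to 41.6 FPKM in controls (log2 -0.54 ± 0.13, limma adjusted p = 0.018). Smad7 did not pass the test without iDKO 2 (log2 -0.40) or against the tamoxifen controls alone (log2 -0.59). Id1 (log2 -1.29) still passed without iDKO 2.

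Some receptors of the pathway rose, and its ligands and antagonists moved in both directions. Of 20 listed BMP and TGF-beta receptors and SMADs, 17 passed the filter on low values, of which 4 rose and 2 fell, while 11 did not pass the test (median log2 -0.07). The 2 that fell were the inhibitory Smad6 and Smad7, so 0 receptors fell. Smad5, itself targeted for deletion, was 1 of the 4 that rose. Bmpr2, a type II BMP receptor, stood at 15.8 and 16.6 FPKM in iDKO, against 8.44, 9.50, 10.6, 8.49 and 9.94 FPKM in controls. The iDKO libraries were close to each other and above all controls (log2 0.76 ± 0.13, limma adjusted p = 0.0026). Tgfbr2, the type II receptor of TGF-beta, stood at 10.8 and 8.46 FPKM in iDKO, against 2.95, 2.90, 3.44, 2.72 and 2.02 FPKM in controls, again with no overlap (log2 1.62 ± 0.17, limma adjusted p = 1.6e-04). The type I BMP receptor gene Bmpr1a rose by log2 0.38. Of 19 listed BMP ligands and secreted antagonists, 9 passed the filter on low values, of which 3 rose and 2 fell, while 4 did not pass the test (median log2 -0.68). Among these calls, Fstl1 passed the filter only through iDKO and Bambi only through the controls, which fixes their side. Bmp3, a BMP family member known to oppose other BMPs, was the member with the smallest adjusted p. It stood at 13.5 and 24.3 FPKM in iDKO, against 3.95, 5.07, 6.63, 5.66 and 9.06 FPKM in controls, and both iDKO libraries exceeded the highest control (log2 1.55 ± 0.29, limma adjusted p = 0.0039). Bmp2, a ligand made by the epithelium itself, did not pass the test (log2 -0.76). The counts for BMP and TGF-beta receptors and SMADs were 3 higher and 1 lower without iDKO 2 and against the tamoxifen controls alone. The counts for BMP ligands and secreted antagonists were 1 higher and 1 lower without iDKO 1 and against the tamoxifen controls alone, 2 higher and 0 lower without iDKO 2. Bmpr1a did not pass the test without control 2 (log2 0.38) or control 5 (log2 0.39) or iDKO 1 (log2 0.49) or iDKO 2 (log2 0.28) or against the tamoxifen controls alone (log2 0.30).

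**Figure D1:**
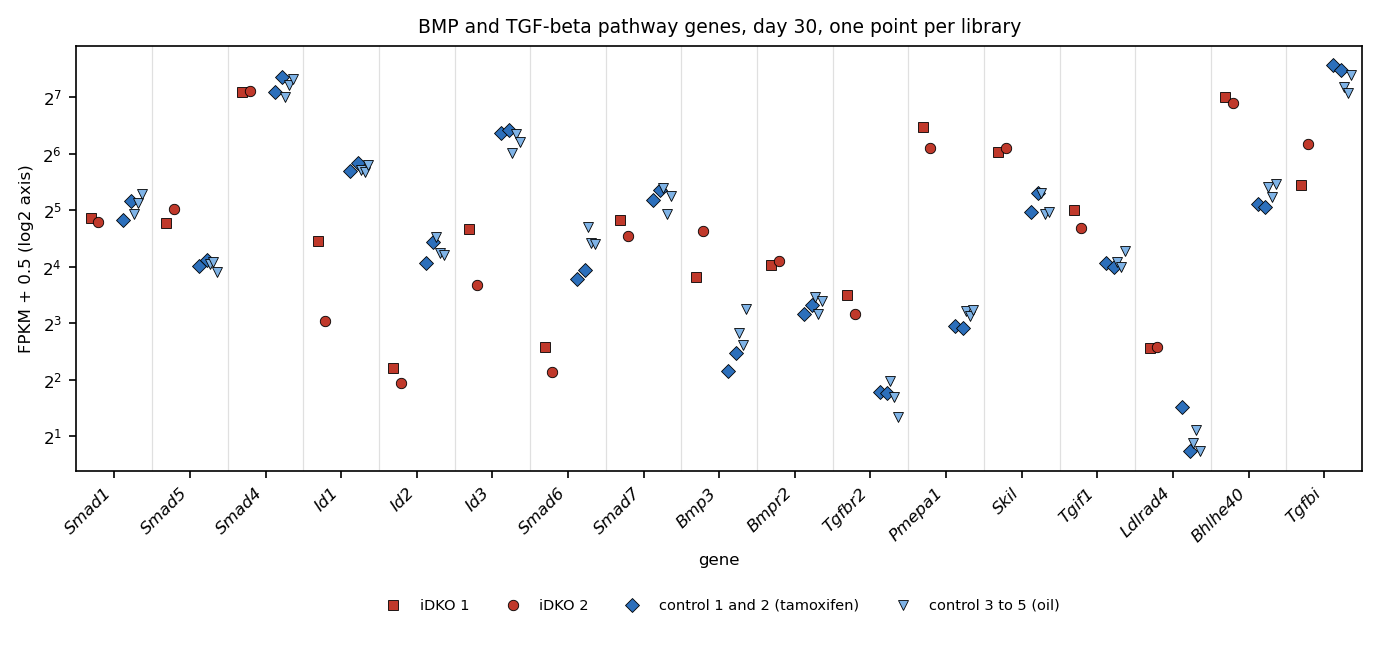
FPKM + 0.5 on a log2 axis for 17 genes of the BMP and TGF-beta pathways, with 1 point per library at day 30 (red, iDKO; dark blue, tamoxifen controls; light blue, oil controls). The Id genes, Smad6 and Tgfbi lie lower in iDKO than in every control, while Bmp3, Bmpr2, Tgfbr2, Pmepa1, Skil, Tgif1, Ldlrad4 and Bhlhe40 lie higher.

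Genes known to respond to TGF-beta were higher more often than lower. Of 15 listed TGF-beta and activin response genes, 12 passed the filter on low values, of which 6 rose and 2 fell, while 4 did not pass the test (median log2 0.67). Pmepa1, which is induced by TGF-beta and dampens SMAD2 and SMAD3 signalling, stood at 88.5 and 68.2 FPKM in iDKO, against 7.21, 7.06, 8.84, 8.27 and 8.96 FPKM in controls. Every control lay far under both iDKO libraries (log2 3.20 ± 0.14, limma adjusted p = 1.4e-06). Skil, a SMAD corepressor that TGF-beta induces as feedback, stood at 64.4 and 67.7 FPKM in iDKO, against 30.2 to 39.2 FPKM in controls (log2 0.96 ± 0.14, limma adjusted p = 9.2e-04). Tgif1, another corepressor of SMADs, and Ldlrad4, a membrane protein that limits SMAD activation, were higher by log2 0.76 and 1.57. The integrin subunit gene Itgb6, whose product activates latent TGF-beta, rose by log2 0.90. Tgfbi, which encodes an extracellular matrix protein named for its induction by TGF-beta, went the other way. It stood at 42.9 and 71.7 FPKM in iDKO, against 189.5, 178, 144, 135 and 167 FPKM in controls, with iDKO 1 the lowest library (log2 -1.53 ± 0.18, limma adjusted p = 3.6e-04). Cdkn1a, the cell cycle inhibitor p21, also fell (log2 -0.66). The counts for TGF-beta and activin response genes were 6 higher and 1 lower without iDKO 2. Cdkn1a (log2 -0.45) did not pass the test without iDKO 2.

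Several transcription factors of villus enterocytes were lower. All 42 listed villus and intestinal transcription factors passed the filter on low values, and 4 rose and 8 fell, while 30 did not pass the test (median log2 0.01). The share that rose, 9.52%, is near the 9.56% of all genes tested, and the share that fell was 19.05%, against 9.45% of all genes. Tbx3, a T-box factor of the villus, stood at 19.6 and 15.9 FPKM in iDKO, against 47.9 to 70.7 FPKM in controls (log2 -1.70 ± 0.19, limma adjusted p = 2.5e-04). Maf, the c-MAF factor of enterocytes in the middle of the villus, stood at 22.04 and 26.2 FPKM in iDKO, against 86.1, 77.4, 85.4, 72.9 and 70.2 FPKM in controls. Its iDKO libraries were close together and well under all controls (log2 -1.68 ± 0.11, limma adjusted p = 1.6e-05). Vdr, the vitamin D receptor, stood at 163 and 237 FPKM in iDKO, against 382 to 461 FPKM in controls (log2 -1.08 ± 0.15, limma adjusted p = 9.4e-04), and Ppargc1a, a coactivator of mitochondrial genes, at 6.62 and 12.9 FPKM in iDKO, against 21.5 to 30.5 FPKM in controls (log2 -1.40 ± 0.24, limma adjusted p = 0.0028). Klf4, a zinc finger factor of differentiated cells, was lower at 100.42 and 74.6 FPKM in iDKO, against 152 to 273 FPKM in controls (log2 -1.09 ± 0.23, limma adjusted p = 0.0081). Creb3l3, a membrane-bound factor of lipid metabolism, and Onecut2, a factor of proximal intestine, rose by log2 0.86 and 1.02. The counts for villus and intestinal transcription factors were 2 higher and 6 lower without iDKO 1. Klf4 (log2 -0.88) did not pass the test without iDKO 2.

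The products of mid villus enterocytes fell broadly. All 19 listed mid villus enterocyte genes passed the filter on low values, and 0 rose and 16 fell, while 3 did not pass the test (median log2 -1.31). Most of them are also in the amino acid or carbohydrate list below, so these counts are not separate results. Of 18 listed amino acid and peptide transport genes, 15 passed the filter on low values, of which 0 rose and 11 fell, while 4 did not pass the test (median log2 -1.66). Slc15a1, the transporter of dietary di- and tripeptides, stood at 53.9 and 104 FPKM in iDKO, against 307, 335, 371, 241 and 326 FPKM in controls. Both iDKO libraries were under every control, iDKO 1 the lower (log2 -2.05 ± 0.22, limma adjusted p = 2.1e-04). The glutamate transporter gene Slc1a1 stood at 4.48 and 5.15 FPKM in iDKO, against 15.5 to 25.0 FPKM in controls (log2 -1.81 ± 0.23, limma adjusted p = 4.4e-04). Of 18 listed carbohydrate digestion and absorption genes, 17 passed the filter on low values, of which 0 rose and 12 fell, while 5 did not pass the test (median log2 -1.29). Slc2a7, a facilitative sugar transporter, stood at 16.4 and 21.2 FPKM in iDKO, against 83.4, 107, 141, 118 and 109 FPKM in controls, with no overlap (log2 -2.53 ± 0.19, limma adjusted p = 2.7e-05). Slc5a11, a sodium-coupled transporter of myo-inositol, fell (log2 -2.32). The transporters of lactate and of dicarboxylates, Slc5a12 and Slc13a2, fell further. Slc5a12 stood at 9.50 and 10.001 FPKM in iDKO, against 68.2 to 168 FPKM in controls (log2 -3.48 ± 0.37, limma adjusted p = 1.6e-04), and Slc13a2 at 7.24 and 10.7 FPKM in iDKO, against 44.0 to 122 FPKM in controls (log2 -3.21 ± 0.35, limma adjusted p = 2.2e-04). Sis, the sucrase-isomaltase gene, was named after its values were seen and did not pass the test, with 937 and 1311 FPKM in iDKO, against 1113 to 1974 FPKM in controls (log2 -0.42). The counts for carbohydrate digestion and absorption genes were 0 higher and 6 lower without iDKO 1.

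Digestive enzymes of the brush border followed the transporters. Of 26 listed brush border hydrolases, 21 passed the filter on low values, of which 0 rose and 14 fell, while 7 did not pass the test (median log2 -1.18). Sis, Lct, Treh and Mgam belong both to these and to the carbohydrate list above. Dpp4, a dipeptidyl peptidase, stood at 295 and 363 FPKM in iDKO, against 1021, 1009, 988, 765 and 983 FPKM in controls, and the iDKO libraries were the lowest of the 7 (log2 -1.53 ± 0.14, limma adjusted p = 6.2e-05). Enpp7, the alkaline sphingomyelinase that digests dietary sphingomyelin, stood at 55.6 and 53.3 FPKM in iDKO, against 388, 443, 589, 435 and 298 FPKM in controls. Its iDKO values nearly coincided, under a scattered set of controls (log2 -2.94 ± 0.32, limma adjusted p = 2.0e-04). Mme (neprilysin), Xpnpep2 (an aminopeptidase) and Mep1a (the meprin A alpha chain) fell (log2 -1.56, -1.83 and -1.74). Of 18 listed purine and nucleotide catabolism genes, 15 passed the filter on low values, of which 1 rose and 5 fell, while 9 did not pass the test (median log2 -0.37). Slc28a1, the sodium-coupled transporter of pyrimidine nucleosides, stood at 6.76 and 2.96 FPKM in iDKO, against 160.3, 68.3, 74.1, 67.0 and 74.9 FPKM in controls. Both iDKO libraries were far under the controls, among which control 1 stood apart (log2 -4.07 ± 0.37, limma adjusted p = 7.4e-05). Tymp, thymidine phosphorylase, stood at 6.89 and 6.92 FPKM in iDKO, against 53.6, 53.8, 19.6, 48.2 and 54.7 FPKM in controls, with the iDKO libraries almost equal and control 3 the lowest control (log2 -2.56 ± 0.34, limma adjusted p = 6.2e-04). Cda, cytidine deaminase, fell (log2 -1.34). All 26 listed microvillus structure genes passed the filter on low values, and 8 rose and 4 fell, while 14 did not pass the test (median log2 -0.02). Ezr, which ties membrane proteins to actin in microvilli, fell to 304 and 375 FPKM in iDKO, against 579 to 807 FPKM in controls (log2 -1.003 ± 0.15, limma adjusted p = 0.0013). Vill, a relative of villin, stood at 4.15 and 1.87 FPKM in iDKO, against 0.192 to 0.676 FPKM in controls and passed the filter only through iDKO, so no test is given. The counts for brush border hydrolases were 0 higher and 9 lower without iDKO 1. The counts for purine and nucleotide catabolism genes were 1 higher and 3 lower against the tamoxifen controls alone. The counts for microvillus structure genes were 2 higher and 1 lower without iDKO 1, 5 higher and 4 lower without iDKO 2, 4 higher and 2 lower against the tamoxifen controls alone. Mep1a (log2 -1.22) did not pass the test without iDKO 1.

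Genes of water and ion transport moved in both directions, more of them down. Of 33 listed ion and water transport genes, 31 passed the filter on low values, of which 4 rose and 11 fell, while 16 did not pass the test (median log2 -0.35). Kcnj13, which was called, passed the filter only through the controls, which fixes its side. The water channel gene Aqp1 stood at 18.2 and 21.7 FPKM in iDKO, against 99.2, 133, 197, 126 and 139.8 FPKM in controls, without overlap (log2 -2.74 ± 0.20, limma adjusted p = 2.7e-05). Aqp3, a channel for water and glycerol, stood at 3.88 and 1.17 FPKM in iDKO, against 67.1, 43.4, 55.0, 43.4 and 18.2 FPKM in controls, iDKO 2 being the lowest (log2 -3.97 ± 0.56, limma adjusted p = 9.2e-04). Car4, a carbonic anhydrase on the apical membrane, stood at 47.1 and 39.3 FPKM in iDKO, against 179 to 697 FPKM in controls (log2 -2.82 ± 0.41, limma adjusted p = 0.0011). The sodium pump subunit gene Atp1b1 fell (log2 -0.78). Cftr, the chloride channel of crypt secretion, rose, with 74.1 and 84.3 FPKM in iDKO, against 43.5 to 51.5 FPKM in controls (log2 0.74 ± 0.13, limma adjusted p = 0.0030). The counts for ion and water transport genes were 3 higher and 4 lower without iDKO 1.

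Genes of mineral and vitamin uptake went both ways too. Of 34 listed mineral and vitamin absorption genes, 29 passed the filter on low values, of which 8 rose and 6 fell, while 15 did not pass the test (median log2 0.06). Slc40a1 encodes ferroportin, which exports iron from enterocytes to the blood. It stood at 70.1 and 84.3 FPKM in iDKO, against 7.498, 6.46, 5.48, 7.99 and 11.2 FPKM in controls. Both iDKO libraries lay far above the highest control (log2 3.27 ± 0.30, limma adjusted p = 8.1e-05). Fth1, the ferritin heavy chain that stores iron in the cell, rose as well, with 3631 and 3879 FPKM in iDKO, against 1834 to 2651 FPKM in controls (log2 0.82 ± 0.15, limma adjusted p = 0.0043). Slc11a2 (the apical iron importer) and Heph (the ferroxidase that works with ferroportin), both named after their values were seen, did not pass the test (log2 0.30 and 0.06). Cubn and Amn encode the 2 chains of the receptor for vitamin B12 bound to intrinsic factor. Cubn stood at 2.94 and 5.19 FPKM in iDKO, against 18.5, 73.3, 199, 42.8 and 107 FPKM in controls, under a wide spread of controls (log2 -3.91 ± 0.70, limma adjusted p = 0.0033), and Amn at 55.6 and 58.5 FPKM in iDKO, against 132 to 188 FPKM in controls (log2 -1.39 ± 0.12, limma adjusted p = 6.5e-05). Lrat, which esterifies absorbed retinol, fell (log2 -2.31). The counts for mineral and vitamin absorption genes were 4 higher and 3 lower without iDKO 1, 2 higher and 5 lower without iDKO 2 and against the tamoxifen controls alone.

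**Figure D2:**
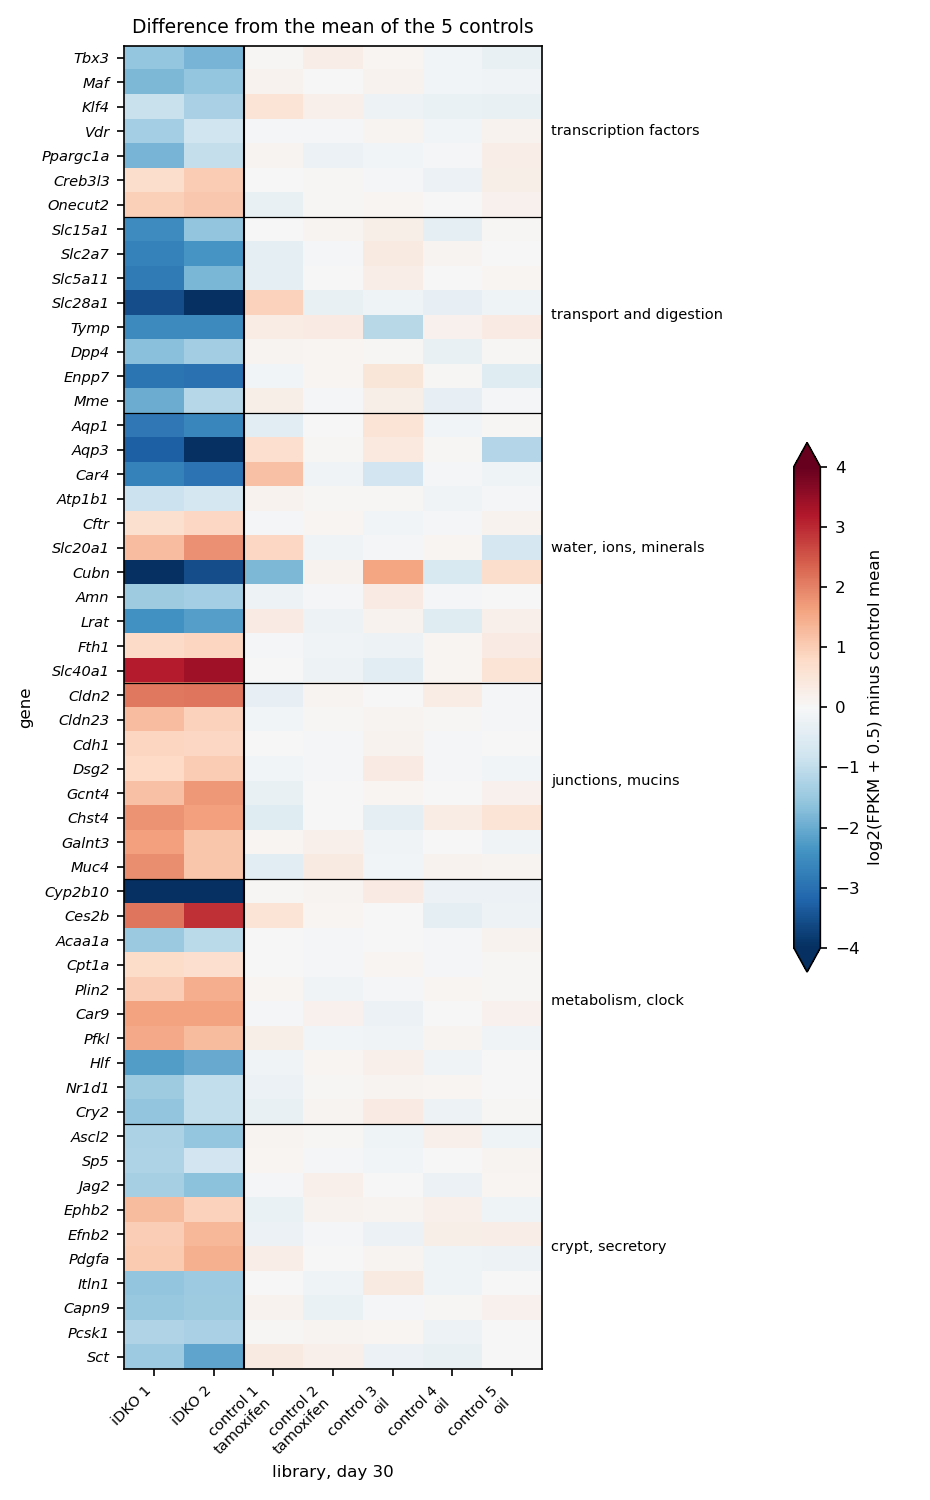
Difference of each day 30 library (columns) from the mean of the 5 controls, in log2(FPKM + 0.5), for named genes (rows), with colours saturating at 4 in either direction. The 2 iDKO columns at the left share their colours in nearly every row, while the controls stay close to 0 except in genes such as Cubn, Car4 and Tymp.

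Genes of cell contacts and of the mucin coat were higher more often than lower. So were the 12 intestinal epithelium markers, of which 6 rose and 0 fell (median log2 0.50), so the rise was not confined to these groups. Cdh1, given below, is among those markers. Of 27 listed tight junction and adhesion genes, 25 passed the filter on low values, of which 14 rose and 1 fell, while 10 did not pass the test (median log2 0.38). Cldn2, a claudin that forms a pore for cations and water in the crypts, stood at 252 and 255 FPKM in iDKO, against 46.0, 62.4, 57.0, 70.5 and 55.9 FPKM in controls. The iDKO libraries nearly coincided, far above the controls (log2 2.12 ± 0.14, limma adjusted p = 1.7e-05). Cldn15, the claudin of the paracellular sodium route along the villus, fell, with 222 and 330.4 FPKM in iDKO, against 389 to 505 FPKM in controls (log2 -0.70 ± 0.16, limma adjusted p = 0.012). Cdh1 (E-cadherin) stood at 657 and 634 FPKM in iDKO, against 359, 343, 395, 342 and 362 FPKM in controls, the controls lying close together under both iDKO libraries (log2 0.84 ± 0.09, limma adjusted p = 2.0e-04). The desmosomal cadherin gene Dsg2 and the claudin gene Cldn23 rose by log2 0.90 and 1.08. Of 31 listed transmembrane mucin and glycosylation genes, 26 passed the filter on low values, of which 8 rose and 1 fell, while 17 did not pass the test (median log2 0.37). Muc1, which was called, passed the filter only through iDKO, which fixes its side. Gcnt4, which adds a branch to O-linked glycans, stood at 45.4 and 68.0 FPKM in iDKO, against 16.4 to 22.7 FPKM in controls (log2 1.45 ± 0.17, limma adjusted p = 3.6e-04). Chst4, a sulfotransferase acting on such glycans, stood at 58.4 and 52.2 FPKM in iDKO, against 11.5, 16.5, 12.8, 20.5 and 24.2 FPKM in controls, with both iDKO libraries above the highest control (log2 1.71 ± 0.28, limma adjusted p = 0.0021). Galnt3, which attaches the first sugar, and the transmembrane mucin gene Muc4 were higher by log2 1.38 and 1.48. The counts for tight junction and adhesion genes were 7 higher and 0 lower without iDKO 1, 8 higher and 1 lower without iDKO 2, 8 higher and 0 lower against the tamoxifen controls alone. The counts for transmembrane mucin and glycosylation genes were 8 higher and 2 lower without control 4, 8 higher and 0 lower without iDKO 1 and against the tamoxifen controls alone. Cldn15 did not pass the test without iDKO 1 (log2 -0.42) or against the tamoxifen controls alone (log2 -0.58).

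Lipid genes moved in both directions, more of them down. Of 29 listed dietary lipid absorption and chylomicron genes, 28 passed the filter on low values, of which 3 rose and 6 fell, while 19 did not pass the test (median log2 -0.12). The share that rose, 10.71%, is near the 9.56% of all genes tested, and the share that fell was 21.43%, against 9.45%. Of 27 listed fatty acid oxidation and ketogenesis genes, 24 passed the filter on low values, of which 4 rose and 8 fell, while 12 did not pass the test (median log2 -0.06). The fatty acid receptor gene Cd36 stood at 13.3 and 21.6 FPKM in iDKO, against 86.6, 81.0, 96.5, 71.7 and 130.2 FPKM in controls, and its iDKO values were the lowest of the 7 (log2 -2.39 ± 0.25, limma adjusted p = 1.6e-04). Fabp2, the intestinal fatty acid binding protein, fell (log2 -1.16). Plin2, which coats lipid droplets, stood at 214 and 296 FPKM in iDKO, against 98.1 to 115 FPKM in controls (log2 1.21 ± 0.12, limma adjusted p = 1.2e-04), while Lipe, the hormone-sensitive lipase, stood at 17.4 and 22.6 FPKM in iDKO, against 49.1 to 60.2 FPKM in controls (log2 -1.43 ± 0.12, limma adjusted p = 4.9e-05). In fatty acid oxidation the mitochondrial genes Acadl and Cpt1a rose by log2 1.30 and 0.72, and Acaa1a, a peroxisomal thiolase, fell (log2 -1.28). All 24 listed glycolysis and hypoxia genes passed the filter on low values, and 9 rose and 1 fell, while 14 did not pass the test (median log2 0.46). Car9, a carbonic anhydrase that hypoxia induces, stood at 213 and 214 FPKM in iDKO, against 65.6, 78.3, 58.9, 70.4 and 78.3 FPKM in controls, the iDKO libraries nearly equal and far above the controls (log2 1.60 ± 0.11, limma adjusted p = 2.4e-05). Pfkl, the liver form of phosphofructokinase, rose by log2 1.40, and the gene listed as ERO1A, an oxidase of the endoplasmic reticulum, by log2 1.17. The counts for dietary lipid absorption and chylomicron genes were 1 higher and 6 lower without control 2, 1 higher and 7 lower without iDKO 2, 1 higher and 4 lower against the tamoxifen controls alone. The counts for fatty acid oxidation and ketogenesis genes were 3 higher and 2 lower without iDKO 1, 3 higher and 5 lower against the tamoxifen controls alone. The counts for glycolysis and hypoxia genes were 13 higher and 2 lower without control 1, 4 higher and 0 lower without iDKO 1.

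Cholesterol synthesis genes were higher in the iDKO libraries. The pathway is switched on by the transcription factor SREBP2 when membrane sterols are low. All 22 listed cholesterol synthesis genes passed the filter on low values, and 13 rose and 0 fell, while 9 did not pass the test (median log2 0.93). The list medians were 1.25 in iDKO 1 and 0.63 in iDKO 2, against -0.26 to 0.27 in the controls. Cyp51 (lanosterol demethylase) stood at 194 and 115 FPKM in iDKO, against 40.7, 33.4, 37.7, 44.9 and 21.1 FPKM in controls, with iDKO 1 the highest library (log2 2.10 ± 0.31, limma adjusted p = 0.0011). Srebf2 encodes SREBP2. It stood at 113 and 99.2 FPKM in iDKO, against 50.3 to 61.1 FPKM in controls (log2 0.95 ± 0.11, limma adjusted p = 3.1e-04). Lss (lanosterol synthase) rose to 24.6 and 13.6 FPKM in iDKO, against 6.63 to 11.1 FPKM in controls (log2 1.03 ± 0.28, limma adjusted p = 0.028), and Hmgcs1, an early enzyme of the pathway, to 145 and 90.6 FPKM in iDKO, against 40.5 to 71.7 FPKM in controls (log2 0.98 ± 0.27, limma adjusted p = 0.029). Of 30 listed SREBP regulators and other SREBP targets, 28 passed the filter on low values, of which 11 rose and 1 fell, while 16 did not pass the test (median log2 0.32). Mylip, which was called, passed the filter only through the controls, which fixes its side. Elovl6, which lengthens fatty acids, stood at 209 and 235 FPKM in iDKO, against 89.6, 76.4, 56.1, 95.0 and 62.4 FPKM in controls (log2 1.57 ± 0.18, limma adjusted p = 3.1e-04), without overlap. Scd2, a fatty acid desaturase, stood at 78.1 and 33.8 FPKM in iDKO, against 5.79, 8.67, 13.9, 11.03 and 3.36 FPKM in controls, with a more than 2-fold gap between the iDKO libraries (log2 2.66 ± 0.54, limma adjusted p = 0.0063). Fasn, the fatty acid synthase gene, did not pass the test (log2 0.37). The counts for cholesterol synthesis genes were 4 higher and 0 lower without iDKO 1, 7 higher and 0 lower against the tamoxifen controls alone. The counts for SREBP regulators and other SREBP targets were 11 higher and 2 lower without control 4, 3 higher and 1 lower without iDKO 1, 7 higher and 0 lower without iDKO 2 and against the tamoxifen controls alone. Scd2 (log2 2.06) did not pass the test without iDKO 1. Hmgcs1 did not pass the test without control 3 (log2 0.97) or iDKO 1 (log2 0.64) or against the tamoxifen controls alone (log2 0.86). Lss did not pass the test without control 5 (log2 0.94) or iDKO 1 (log2 0.61) or against the tamoxifen controls alone (log2 1.02).

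The promoters of 3 called cholesterol genes are shown because the list moved together and SREBP2 is known to act beside the factor NF-Y, which binds CCAAT boxes. Each run is the 250 bases before the gene's start, 5′ to 3′ on the gene's strand, from RefSeq on GRCm38.p6, with CCAATC or its reverse GATTGG in capitals for Cyp51 and Lss and the sterol element letters TCACCCCAC in capitals for Hmgcs1.
Cyp51 (chr5:4104698-4104947, - strand): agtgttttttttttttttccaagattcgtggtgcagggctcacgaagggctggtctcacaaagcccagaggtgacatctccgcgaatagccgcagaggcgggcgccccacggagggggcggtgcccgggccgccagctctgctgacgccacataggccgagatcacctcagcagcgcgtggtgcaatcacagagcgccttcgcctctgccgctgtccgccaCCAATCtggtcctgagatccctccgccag
Lss (chr10:76531355-76531604, + strand): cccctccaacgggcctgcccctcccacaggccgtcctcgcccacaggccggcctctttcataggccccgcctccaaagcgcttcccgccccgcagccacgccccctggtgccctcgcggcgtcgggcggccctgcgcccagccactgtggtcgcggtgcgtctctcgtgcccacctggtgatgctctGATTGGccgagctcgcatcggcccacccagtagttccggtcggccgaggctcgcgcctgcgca
Hmgcs1 (chr13:119690101-119690350, + strand): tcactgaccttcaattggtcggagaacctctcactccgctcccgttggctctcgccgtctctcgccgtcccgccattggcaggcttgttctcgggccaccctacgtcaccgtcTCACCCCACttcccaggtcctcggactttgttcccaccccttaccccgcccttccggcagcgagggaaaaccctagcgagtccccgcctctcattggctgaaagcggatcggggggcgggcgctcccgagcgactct
Both strands were searched, and the 2 motifs do not overlap each other in letters. A CCAAT box followed by a letter other than C was not counted, and the Hmgcs1 run holds such boxes, as ATTGG. Promoters were matched for 17 of the 22 cholesterol genes tested. CCAATC was in 12 of the 17 (70.6%), against 15.09% of all 27025 promoters of that length and 19.76% of the 9118 matched to genes tested. It was in 7 of the 11 of these called higher. Mvk, Hsd17b7, Ebp, Lbr and Ggps1, which were not called, held it too, so it did not mark the genes that rose. Of the other SREBP genes, 4 of 22 (18.2%) held it. TCACCCCAC was in 1 of the 17 cholesterol promoters and in 0.47% of all promoters. A match describes these letters in this window and is no shown binding site.

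Interferon response genes and genes of fetal and regenerating epithelium were higher mainly in iDKO 1. Of 58 listed interferon response genes, 51 passed the filter on low values, of which 16 rose and 0 fell, while 35 did not pass the test (median log2 0.73), and the list medians were 1.23 in iDKO 1 and 0.24 in iDKO 2, against -0.14 to 0.10 in the controls. The 2 iDKO libraries also differ in sex-linked RNA: the Y-linked gene Eif2s3y stood at 46.6 and 0 FPKM in iDKO, against 45.4, 0, 0, 45.7 and 0 FPKM in controls. Ddx3y, Kdm5d and Uty were likewise detected in iDKO 1 and controls 1 and 4 and listed at 0 in iDKO 2 and the other controls, and the part of sex in these results was not tested. Ifi44, an interferon-induced gene, was high in both iDKO libraries. It stood at 50.0 and 42.3 FPKM in iDKO, against 1.77, 1.58, 1.63, 2.01 and 1.32 FPKM in controls (log2 4.43 ± 0.17, limma adjusted p = 7.5e-07). Ifit2, an antiviral protein gene that interferon induces, stood at 71.0 and 11.6 FPKM in iDKO, against 1.52, 2.36, 0.566, 0.980 and 1.42 FPKM in controls, iDKO 2 lying much closer to the controls than iDKO 1 (log2 4.05 ± 0.78, limma adjusted p = 0.0049). The counts for interferon response genes were 4 higher and 0 lower without iDKO 1, 31 higher and 0 lower without iDKO 2, 8 higher and 0 lower against the tamoxifen controls alone. Ifit2 (log2 2.77) did not pass the test without iDKO 1.

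Promoters of 3 interferon genes called higher are shown for the letters GAAA, any 2 bases and GAAA (TTTC, any 2 bases and TTTC on the other strand), the core of the element that interferon-activated factors bind, with matches in capitals and overlapping matches run together. They are the 250 bases before the start, 5′ to 3′ on the gene's strand, from RefSeq on GRCm38.p6.
Ifit1 (chr19:34640639-34640888, + strand): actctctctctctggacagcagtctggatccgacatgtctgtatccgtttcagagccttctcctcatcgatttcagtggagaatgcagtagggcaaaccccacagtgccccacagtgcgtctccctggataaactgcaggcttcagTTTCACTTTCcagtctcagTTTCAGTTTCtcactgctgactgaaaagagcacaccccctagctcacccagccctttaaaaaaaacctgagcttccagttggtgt
Bst2 (chr8:71537473-71537722, - strand): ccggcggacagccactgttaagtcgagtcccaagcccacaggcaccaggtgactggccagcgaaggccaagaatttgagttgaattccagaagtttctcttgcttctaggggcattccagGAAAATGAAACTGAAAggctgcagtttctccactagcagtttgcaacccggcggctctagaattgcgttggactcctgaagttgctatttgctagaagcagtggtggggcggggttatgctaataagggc
Gbp3 (chr3:142559794-142560043, + strand): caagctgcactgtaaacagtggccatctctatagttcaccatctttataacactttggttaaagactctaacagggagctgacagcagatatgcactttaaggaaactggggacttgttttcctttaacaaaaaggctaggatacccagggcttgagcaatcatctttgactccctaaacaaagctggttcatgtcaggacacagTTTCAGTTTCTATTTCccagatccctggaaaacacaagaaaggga
The letters were found on either strand in 19 of 38 matched promoters of interferon genes tested (50.0%), in 3 of the 12 called higher, and in 3.04% of all 27025 promoters. The 3 promoters shown are those 3, so they were picked for holding the letters. Most of the 19 belong to genes not called, such as Isg15, Oas1a and Ifit3, so the letters did not mark the genes that rose. Ifit1 stood at 137 and 50.9 FPKM in iDKO, against 17.1 to 30.5 FPKM in controls (log2 1.95 ± 0.35, limma adjusted p = 0.0038). Bst2, a membrane protein that tethers budding viruses, stood at 26.7 and 11.6 FPKM in iDKO, against 5.91 to 13.0 FPKM in controls, and Gbp3, a guanylate-binding protein, at 6.74 and 1.91 FPKM in iDKO, against 0.942 to 1.74 FPKM in controls. In all 3 genes iDKO 1 was the highest library and iDKO 2 lay nearer to the controls. Ifit1 (log2 1.24) did not pass the test without iDKO 1. Bst2 did not pass the test without any 1 of control 1, control 2, control 3, control 5, iDKO 1, iTKO 1, iTKO 2 and iTKO 3 (log2 0.43 to 1.03) or against the tamoxifen controls alone (log2 1.23). Gbp3 did not pass the test without control 2 (log2 1.17) or control 3 (log2 1.23) or control 5 (log2 1.17) or iDKO 1 (log2 0.45) or against the tamoxifen controls alone (log2 1.22). Bst2 (log2 1.60) and Gbp3 (log2 2.04) still passed without iDKO 2.

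Genes of regenerating epithelium showed a wide gap between the 2 iDKO libraries. Of 28 listed fetal and regenerative epithelium genes, 18 passed the filter on low values, of which 7 rose and 0 fell, while 11 did not pass the test (median log2 1.17). Ly6a, Anxa10 and Spp1 passed the filter only through iDKO, which fixes their side, and 2 of these 3 were called. The list medians were 1.93 in iDKO 1 and 0.40 in iDKO 2, against -0.07 to 0.05 in the controls. Clu (clusterin), which marks cells that rebuild damaged crypts, stood at 34.3 and 14.4 FPKM in iDKO, against 1.09, 1.03, 2.65, 1.49 and 1.46 FPKM in controls. Both iDKO libraries were above all controls, iDKO 1 more than iDKO 2 (log2 3.53 ± 0.36, limma adjusted p = 1.4e-04). Anxa10, an annexin gene normally active in the stomach, stood at 78.7 and 10.4 FPKM in iDKO, against 0.0429, 0, 0, 0.135 and 0 FPKM in controls. It is listed at 0 in 3 controls, so no fold is given. Anxa5 stood at 57.0 and 22.05 FPKM in iDKO, against 6.31 to 8.99 FPKM in controls (log2 2.16 ± 0.28, limma adjusted p = 5.6e-04), and Krt7, a keratin of ductal epithelia, at 136 and 87.0 FPKM in iDKO, against 25.5 to 31.1 FPKM in controls (log2 1.89 ± 0.16, limma adjusted p = 4.6e-05). Capg, an actin capping protein, stood at 137 and 39.0 FPKM in iDKO, against 4.15 to 8.42 FPKM in controls (log2 3.46 ± 0.42, limma adjusted p = 3.7e-04). Of 16 listed Brunner gland and gastric type mucous genes, 5 passed the filter on low values, of which 5 rose and 0 fell, while 0 did not pass the test (median log2 1.48). Of those 5, 3 (Muc1, Ctse and Wfdc2) passed the filter only through iDKO. Ctrb1, a digestive protease precursor of the pancreas, stood at 64.5 and 22.4 FPKM in iDKO, against 0.206, 0, 0, 0.144 and 0.234 FPKM in controls. It too passed the filter only through iDKO. Red cell and pancreatic markers present in the table summed to 87.7 and 40.6 FPKM in iDKO, against 6.90 to 16.8 FPKM in controls, and their part in the other results was not tested. The counts for fetal and regenerative epithelium genes were 8 higher and 1 lower without control 1, 4 higher and 0 lower without iDKO 1, 11 higher and 0 lower without iDKO 2. The counts for Brunner gland and gastric type mucous genes were 1 higher and 0 lower without iDKO 1, 2 higher and 0 lower without iDKO 2.

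**Figure D3:**
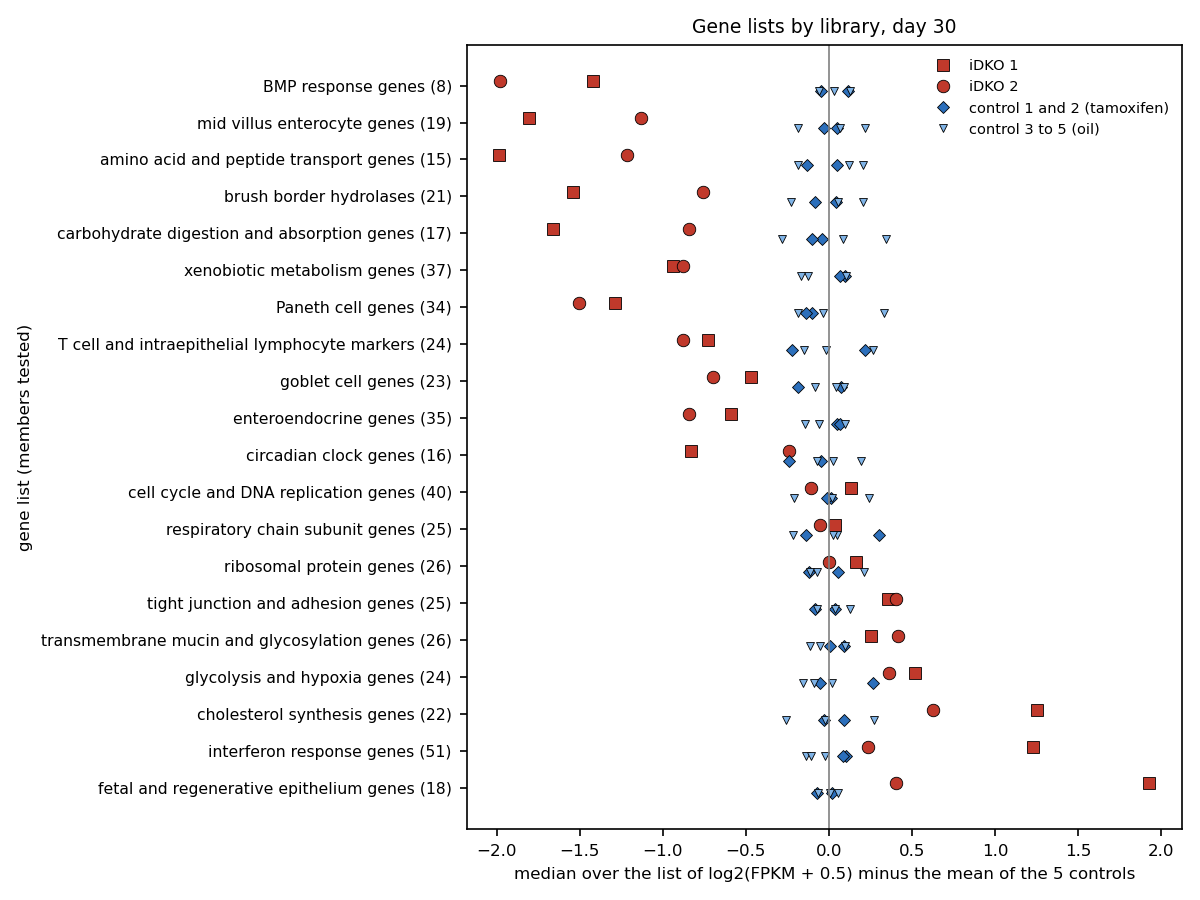
Median over each gene list (rows, members tested in parentheses) of log2(FPKM + 0.5) minus the mean of the 5 controls, with 1 point per day 30 library. The BMP, mid villus, amino acid transport, brush border hydrolase, carbohydrate, Paneth and lymphocyte lists lie below 0 in both iDKO libraries, respiratory chain and ribosomal lists lie among the controls, and iDKO 1 lies far right of iDKO 2 for interferon and regenerative genes. Most mid villus members are also in the amino acid transport or carbohydrate list.

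Detoxification genes fell more often than they rose. All 37 listed xenobiotic metabolism genes passed the filter on low values, and 4 rose and 20 fell, while 13 did not pass the test (median log2 -0.79). Cyp2c29, which was called, passed the filter only through the controls, which fixes its side. The share that rose, 10.81%, is near the 9.56% of all genes tested, and the share that fell was 54.05%, against 9.45%. Cyp2b10, a cytochrome P450 that the receptor CAR induces, stood at 10.6 and 12.5 FPKM in iDKO, against 250.5, 259, 303, 205 and 207 FPKM in controls, the iDKO values far under every control (log2 -4.34 ± 0.33, limma adjusted p = 3.0e-05). Cyp3a11 stood at 34.6 and 10.3 FPKM in iDKO, against 193 to 396 FPKM in controls (log2 -3.996 ± 0.67, limma adjusted p = 0.0024), and Cyp2c55 at 4.74 and 4.23 FPKM in iDKO, against 32.5 to 97.8 FPKM in controls (log2 -3.46 ± 0.38, limma adjusted p = 2.1e-04). Reads of such P450 families and of the carboxylesterases can be shared between near-identical genes, so single members are uncertain. Por, which hands electrons to all microsomal P450 enzymes, rose, with 432 and 459 FPKM in iDKO, against 184 to 227 FPKM in controls (log2 1.11 ± 0.11, limma adjusted p = 1.3e-04). Ces2a, a carboxylesterase, stood at 765 and 924 FPKM in iDKO, against 155 to 289 FPKM in controls (log2 1.90 ± 0.28, limma adjusted p = 0.0011). Of 34 listed retinoid and steroid metabolism genes, 27 passed the filter on low values, of which 3 rose and 10 fell, while 14 did not pass the test (median log2 -0.34). Hsd11b2, which inactivates glucocorticoids, rose to 13.8 and 12.6 FPKM in iDKO, against 2.98 to 4.68 FPKM in controls (log2 1.59 ± 0.20, limma adjusted p = 4.2e-04). Nr0b2, the nuclear receptor SHP, rose by log2 1.73, and Slc51a, a subunit of the basolateral bile acid exporter, fell (log2 -0.99). The counts for retinoid and steroid metabolism genes were 2 higher and 5 lower without iDKO 1, 2 higher and 6 lower against the tamoxifen controls alone.

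Clock genes were lower in part. Of 19 listed circadian clock genes, 16 passed the filter on low values, of which 1 rose and 6 fell, while 9 did not pass the test (median log2 -0.45). Hlf, a factor under direct control of the clock, stood at 0.158 and 0.272 FPKM in iDKO, against 2.33, 2.76, 3.08, 2.32 and 2.68 FPKM in controls, both iDKO libraries far under every control. It passed the filter only through the controls, so no test is given for it. Nr1d1 (REV-ERB alpha) stood at 32.2 and 44.2 FPKM in iDKO, against 73.5 to 93.7 FPKM in controls (log2 -1.20 ± 0.14, limma adjusted p = 2.5e-04), and the repressor gene Cry2 at 2.12 and 3.41 FPKM in iDKO, against 5.86 to 9.37 FPKM in controls (log2 -1.29 ± 0.22, limma adjusted p = 0.0026). Dbp, an output factor of the same family as Hlf, stood at 1.83 and 8.04 FPKM in iDKO, against 11.4, 10.9, 17.9, 16.0 and 13.7 FPKM in controls, iDKO 1 well under iDKO 2 (log2 -1.67 ± 0.38, limma adjusted p = 0.012). The hour at which tissue was taken is not given in the sources used here, and its part in these values was not tested. Dbp did not pass the test without iDKO 1 (log2 -0.74) or against the tamoxifen controls alone (log2 -1.38). Dbp (log2 -2.61) still passed without iDKO 2.

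Of the crypt lists, that of cell cycle genes held 1 call, and the others held more. All 40 listed cell cycle and DNA replication genes passed the filter on low values, and 1 rose and 0 fell, while 39 did not pass the test (median log2 0.01). Mki67, the proliferation marker, stood at 40.2 and 38.1 FPKM in iDKO, against 31.8 to 44.5 FPKM in controls (log2 -0.0043). Of 25 listed crypt base stem cell genes, 24 passed the filter on low values, of which 3 rose and 4 fell, while 17 did not pass the test (median log2 -0.24). These shares, 12.5% and 16.67%, are not far from the 9.56% and 9.45% of all genes tested. Lgr5, the receptor that marks crypt base stem cells, and Olfm4, abundant in them, did not pass the test (log2 0.27 and -0.49). Ascl2, a stem cell factor that Wnt induces, stood at 1.33 and 0.997 FPKM in iDKO, against 4.18, 4.04, 3.34, 4.50 and 3.34 FPKM in controls, both iDKO libraries under every control (log2 -1.40 ± 0.21, limma adjusted p = 0.0011). Of 20 listed Wnt target genes, 14 passed the filter on low values, of which 1 rose and 3 fell, while 10 did not pass the test (median log2 -0.18). The share that rose was 7.14%, against 9.56% of all genes, and the share that fell was 21.43%, against 9.45%. Axin2 and Sp5, direct Wnt targets, fell (log2 -0.94 and -1.01), whereas Ephb2, a receptor that positions cells in the crypt, rose by log2 1.09. Of 18 listed Notch pathway genes, 15 passed the filter on low values, of which 0 rose and 3 fell, while 12 did not pass the test (median log2 -0.29). The Notch ligand gene Jag2 stood at 0.685 and 0.450 FPKM in iDKO, against 2.02 to 2.90 FPKM in controls and also passed the filter only through the controls, so no test is given. Of 25 listed epithelial hedgehog, PDGF and EGF family ligands, 18 passed the filter on low values, of which 7 rose and 1 fell, while 10 did not pass the test (median log2 0.35). Pdgfb and Ereg passed the filter only through iDKO, and 1 of them was called. Wnt3, which was called, passed only through the controls, which fixes its side. Pdgfa, a ligand that epithelium sends to the stroma, rose to 78.3 and 103 FPKM in iDKO, against 32.3 to 45.7 FPKM in controls (log2 1.24 ± 0.16, limma adjusted p = 4.7e-04), and Ihh, the Indian hedgehog ligand, did not pass the test (log2 0.18). The counts for cell cycle and DNA replication genes were 1 higher and 1 lower without control 1, 0 higher and 0 lower without iDKO 1. The counts for crypt base stem cell genes were 2 higher and 2 lower without iDKO 1, 3 higher and 2 lower against the tamoxifen controls alone. The counts for epithelial hedgehog, PDGF and EGF family ligands were 3 higher and 0 lower without iDKO 1, 5 higher and 0 lower against the tamoxifen controls alone.

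Genes of the secretory lineages fell at day 30. In whole epithelium fewer cells of a type and less RNA per cell cannot be told apart. Of 36 listed Paneth cell genes, 34 passed the filter on low values, of which 0 rose and 21 fell, while 13 did not pass the test (median log2 -1.48). Summed Paneth cell genes reached 16640 and 15210 FPKM in iDKO, against 28670 to 41190 FPKM in controls. Itln1, a lectin of Paneth and goblet cells, stood at 889.5 and 972 FPKM in iDKO, against 2651, 2364, 3443, 2336 and 2634 FPKM in controls, the iDKO values far under every control (log2 -1.52 ± 0.23, limma adjusted p = 0.0015). Defensin genes are near-identical and their single values are uncertain. Of 26 listed goblet cell genes, 23 passed the filter on low values, of which 0 rose and 13 fell, while 10 did not pass the test (median log2 -0.58). Atoh1, which sets the secretory fate, stood at 3.91 and 4.97 FPKM in iDKO, against 7.23 to 10.3 FPKM in controls (log2 -0.90 ± 0.15, limma adjusted p = 0.0024), and Capn9, a protease of goblet cells, at 8.62 and 9.30 FPKM in iDKO, against 21.0 to 28.6 FPKM in controls (log2 -1.46 ± 0.15, limma adjusted p = 1.4e-04). Of 45 listed enteroendocrine genes, 35 passed the filter on low values, of which 0 rose and 15 fell, while 20 did not pass the test (median log2 -0.64). Neurod1, Pax6, Insm1, Ucn3 and Iapp passed the filter only through the controls, which fixes their side, and 3 of these 5 were called. Sct (secretin) stood at 13.4 and 8.22 FPKM in iDKO, against 30.6 to 47.8 FPKM in controls (log2 -1.78 ± 0.24, limma adjusted p = 6.4e-04). Nts (neurotensin) stood at 9.35 and 3.10 FPKM in iDKO, against 21.9 to 41.1 FPKM in controls (log2 -2.39 ± 0.35, limma adjusted p = 0.0010). Pcsk1, which processes hormone precursors, fell (log2 -1.25). Of 31 listed tuft cell genes, 23 passed the filter on low values, of which 1 rose and 1 fell, while 21 did not pass the test (median log2 -0.70). Il13ra1, a receptor chain for interleukin 13, was the member that rose (log2 0.97). Of 30 listed T cell and intraepithelial lymphocyte markers, 24 passed the filter on low values, of which 0 rose and 14 fell, while 10 did not pass the test (median log2 -0.82). Their summed level was 207.9 and 163.4 FPKM in iDKO, against 301.5 to 452.7 FPKM in controls. Lymphocyte markers moved with the secretory lists, and their part in those results was not tested. The counts for Paneth cell genes were 0 higher and 11 lower without iDKO 1 and without iDKO 2. The counts for goblet cell genes were 0 higher and 7 lower without iDKO 1, 0 higher and 4 lower without iDKO 2, 0 higher and 8 lower against the tamoxifen controls alone. The counts for enteroendocrine genes were 0 higher and 9 lower without iDKO 2. The counts for tuft cell genes were 1 higher and 3 lower without control 1 and without control 2, 1 higher and 0 lower without iDKO 1 and against the tamoxifen controls alone. The counts for T cell and intraepithelial lymphocyte markers were 0 higher and 7 lower without iDKO 1, 0 higher and 1 lower without iDKO 2, 0 higher and 3 lower against the tamoxifen controls alone.

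Day 6 values come from a separately normalised table with its own controls, so no test was made across days. At day 6, 1680 of 10811 genes tested (15.5%) rose and 895 (8.28%) fell. The median gene there stood at log2 0.184, and after median centring 765 genes rose. The higher calls made up 65.2% of all calls at day 6, against 39.0% after median centring and 49.1% after quantile normalisation. Over the 10383 genes tested at both days, 749 of the 1063 genes higher at day 30 (70.5%) were among the 1624 higher at day 6 (46.1%). Of the 1006 lower at day 30, 591 (58.7%) were among the 866 lower at day 6 (68.2%). Aldoc, a glycolytic aldolase, was called in opposite directions, with log2 0.63 at day 30 and -1.18 at day 6. Slc40a1 was close to its controls at day 6 (log2 0.29 ± 0.26, limma adjusted p = 0.42), unlike at day 30 (log2 3.27). Sst, the somatostatin hormone gene, was also close to its controls at day 6 (log2 -0.01 ± 0.38, limma adjusted p = 0.99) and stood at 21.1 and 18.6 FPKM in iDKO, against 36.7 to 61.1 FPKM in controls at day 30 (log2 -1.24 ± 0.21, limma adjusted p = 0.0026). Coq8a, needed to make coenzyme Q, fell at day 30 (log2 -1.40 ± 0.17, limma adjusted p = 3.6e-04) and did not pass at day 6 (log2 -0.15 ± 0.34, limma adjusted p = 0.75). Gprc5a, a membrane receptor induced by retinoic acid, rose at day 30 (log2 0.90 ± 0.16, limma adjusted p = 0.0034) and did not pass at day 6 (log2 0.11 ± 0.14, limma adjusted p = 0.56). At day 6, 0 of 31 Paneth cell genes, 3 of 26 enteroendocrine genes and 1 of 22 goblet cell genes fell. By limma 0 of the 31 Paneth cell genes also passed at an unadjusted p under 0.05, and of 19 lymphocyte markers 0 were called and 4 passed unadjusted. Errors were wide there, as for Itln1 at day 6 (log2 -1.41 ± 1.77, limma adjusted p = 0.57). Of 17 tuft cell genes tested at day 6, 11 fell. Of 7 BMP response genes tested at day 6, 6 fell and 1 rose. Aldoc did not pass the test without iDKO 1 (log2 0.67) or iDKO 2 (log2 0.60) or against the tamoxifen controls alone (log2 0.55).

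**Figure D4:**
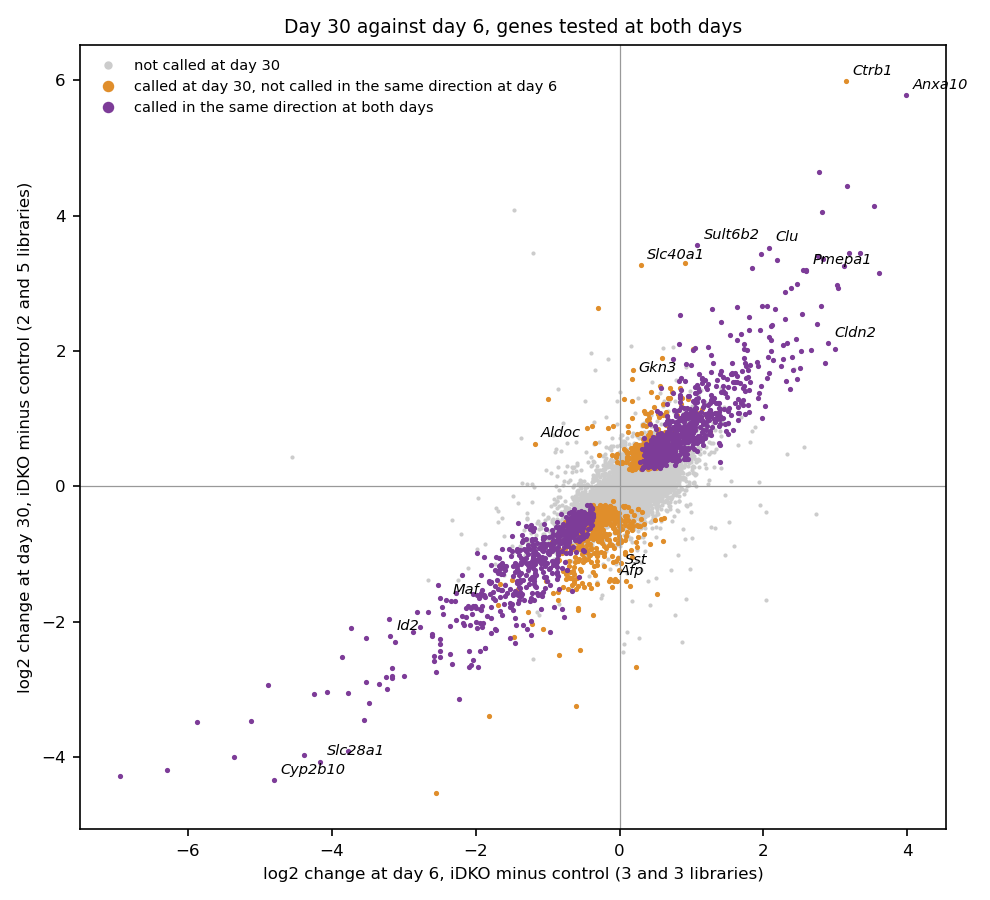
Log2 change of iDKO minus control at day 30 (vertical) against day 6 (horizontal) for genes tested at both days, with purple points called in the same direction at both days. Purple points can lie only where both changes share a sign, because they were chosen so. Slc40a1 lies high at day 30 near 0 at day 6, and Aldoc changes sign.

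The iTKO libraries share their controls with iDKO, so the 2 genotypes were compared directly. The iDKO libraries came from the SMAD1/5 line and the iTKO libraries from the SMAD1/4/5 line. Line and genotype therefore cannot be told apart in this contrast. In that contrast 65 genes were higher in iDKO and 26 lower (0.772% of genes tested), with 1343 at an unadjusted limma p under 0.05. The count was 18 without iDKO 1 and 294 without iDKO 2, and 57, 39 and 32 without iTKO 1, 2 and 3. Pmepa1 stood at 88.5 and 68.2 FPKM in iDKO and 14.3, 17.8 and 16.1 FPKM in iTKO, against 7.06 to 8.96 FPKM in controls (log2 2.24 ± 0.15 for iDKO minus iTKO, limma adjusted p = 1.3e-04), so the iTKO values lay between the other two groups. Gprc5a stood at 26.8 and 28.0 FPKM in iDKO and 5.42, 5.24 and 3.74 FPKM in iTKO, against 12.2 to 17.4 FPKM in controls (log2 2.41 ± 0.18 for iDKO minus iTKO, limma adjusted p = 1.3e-04), so the genotypes lay on opposite sides of the controls. Bdh2, a cytosolic dehydrogenase, stood at 7.19 and 3.90 FPKM in iDKO and 0.363, 0.0418 and 0 FPKM in iTKO, against 0.479 to 0.937 FPKM in controls, and passed the filter only through iDKO, so no test is given. Smad6 was higher in iDKO than in iTKO, with 5.48 and 3.90 FPKM in iDKO and 0.804, 1.32 and 0.360 FPKM in iTKO, against 13.2 to 25.6 FPKM in controls (log2 2.02 ± 0.33 for iDKO minus iTKO, limma adjusted p = 0.022). Clu stood at 34.3 and 14.4 FPKM in iDKO and 4.42, 3.93 and 2.33 FPKM in iTKO, against 1.03 to 2.65 FPKM in controls (log2 2.53 ± 0.40 for iDKO minus iTKO, limma adjusted p = 0.018), and Krt7 at 136 and 87.0 FPKM in iDKO and 48.8, 54.4 and 44.1 FPKM in iTKO, against 25.5 to 31.1 FPKM in controls (log2 1.14 ± 0.17 for iDKO minus iTKO, limma adjusted p = 0.015). Paox, a polyamine oxidase, stood at 41.8 and 32.4 FPKM in iDKO and 12.3, 11.3 and 14.0 FPKM in iTKO, against 8.75 to 11.4 FPKM in controls (log2 1.52 ± 0.15 for iDKO minus iTKO, limma adjusted p = 0.0016). Genes lower in iDKO than in iTKO included Tgfbi (log2 -1.23 ± 0.20 for iDKO minus iTKO, limma adjusted p = 0.022), the sugar transporter Slc2a7 (log2 -1.25 ± 0.21 for iDKO minus iTKO, limma adjusted p = 0.022), Abat, which breaks down GABA (log2 -1.14 ± 0.15 for iDKO minus iTKO, limma adjusted p = 0.0085), and Afp, the alpha-fetoprotein gene (log2 -1.20 ± 0.17 for iDKO minus iTKO, limma adjusted p = 0.012). Hsd17b6, a steroid dehydrogenase, stood at 64.9 and 75.2 FPKM in iDKO and 166, 169.9 and 166 FPKM in iTKO, against 106 to 166 FPKM in controls (log2 -1.26 ± 0.16 for iDKO minus iTKO, limma adjusted p = 0.0072), with the iTKO libraries at the top of the control range. The difference from iTKO did not pass the test without iDKO 1 for Abat (-0.92), Afp (-1.24), Clu (1.91), Hsd17b6 (-1.15), Krt7 (0.82), Slc2a7 (-1.07), Smad6 (1.79) and Tgfbi (-0.86), without iTKO 1 for Slc2a7 (-1.22), Smad6 (2.04) and Tgfbi (-1.26), without iTKO 2 for Clu (2.61) and Tgfbi (-1.21), without iTKO 3 for Clu (2.29), Krt7 (1.07), Slc2a7 (-1.15), Smad6 (1.74) and Tgfbi (-1.23), each as log2 of iDKO minus iTKO.

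**Figure D5:**
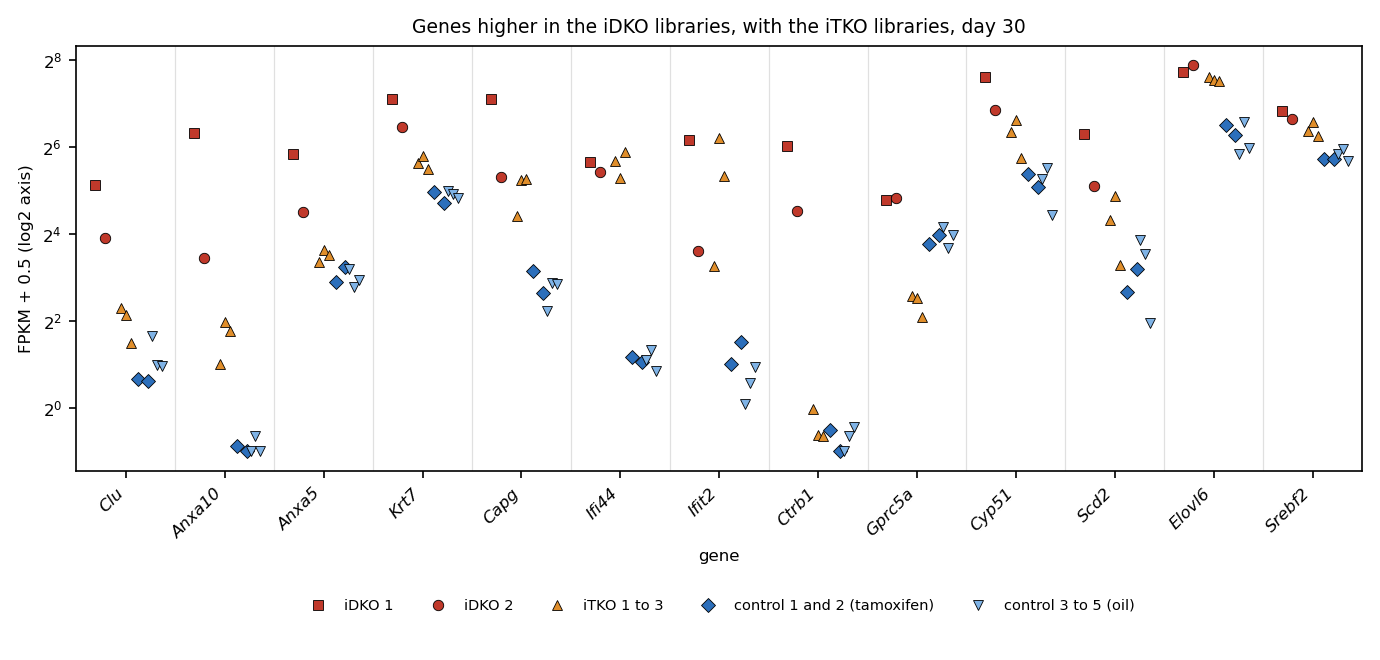
FPKM + 0.5 on a log2 axis for 13 genes that were higher in iDKO than in controls, with 1 point per library at day 30 and the iTKO libraries in orange between iDKO and controls. In Clu, Anxa10, Anxa5, Capg, Ifit2, Ctrb1 and Scd2, iDKO 1 lies well above iDKO 2, and Gprc5a is the gene in which the iTKO libraries lie below the controls.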

How the data were processed

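RNA from proximal small intestinal epithelium was sequenced as paired-end polyA libraries. The authors deposited FPKM per gene, made, per the submitters' processing notes, with HISAT2 2.2.1 and featureCounts 2.0.1; builds GRCm39 and mm10 are named there without a role, and the strand setting and annotation are not given in the sources used here, so overlapping and antisense genes cannot be told apart. FPKM holds relative levels, which a change in a few abundant genes can shift for all others.

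Levels were compared as log2(FPKM + 0.5), which understates changes of low genes, with limma 3.58.1 (mean-variance trend) in R 4.3.3 and Benjamini-Hochberg adjustment over all genes tested; genes past an adjusted p of 0.05 are called. The 10 day 30 libraries (2 iDKO, 3 iTKO, 5 controls) shared 1 fit, on 11785 genes that reached 1 FPKM in 2 or more iDKO or control libraries. Day 6 (3 iDKO, 3 controls) was fitted separately on 10811 genes that reached 1 FPKM in 3 or more libraries, after 32 symbols found on several rows were dropped. In day 6 libraries of the same number, deviations from the group means correlated at 0.143, 0.583 and 0.221, so the numbers pair them by a rule of over 0.1 in each pair; the fit with that block called 1924 higher and 1031 lower. On simulated data for day 30 (11785 genes, 100 changed per size), 68% of 2-fold and 94% of 4-fold changes were recovered with 9 false calls, and for day 6 (10811 genes) 68% and 91% with 6. The simulated noise was independent between genes. It held no shift shared by many genes of a library, so false calls from such shifts were not measured.

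Members and lists were chosen with earlier results of these data known. Some genes belong to several lists, so the counts of different lists are not all independent. Genes named were the SMADs, the 15 largest non-overlapping rises and falls, the most abundant called genes, up to 6 members per list by adjusted p, all members of some short lists, and genes picked by their day 6 or iTKO difference. Bst2, Ces2a, Cldn15, Gbp3, Heph, Ihh, Itgb6, Lgr5, Mep1a, Mki67, Olfm4, Ptger4, Sis and Slc11a2 were named after their values were seen. Alternatives covered the pseudocount, filter, scaling, limma prior and trend, controls used, replicate block and each library left out. Promoters came from RefSeq on GRCm38.p6. Some genes counted in the lists are not reported here by name.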

Additional observations from a re-analysis of the deposited data

Results flagged for a closer look

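For 5 genes named above, 1 control library stood far from the other 4 controls, its gap to the nearest, as a share of the range of the 5, being above Dixon's 95% critical value. Chance alone gives this in about 1 in 20 groups. Dpp4 stood at 765.1 FPKM in control 4, against 982.6 to 1021 FPKM in the other controls. Dsg2 stood at 144 FPKM in control 3 and at 105.2 to 108.7 FPKM in the others. Nr1d1 stood at 73.51 FPKM in control 1 and at 88.39 to 93.67 FPKM in the others. Slc28a1 stood at 160.3 FPKM in control 1 and at 66.98 to 74.85 FPKM in the others. Tymp stood at 19.55 FPKM in control 3 and at 48.23 to 54.71 FPKM in the others.

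Aldoc, an aldolase gene, moved in opposite directions at the 2 times, with every iDKO library on the same side of its controls at each time. Its log2 change was 0.632 at day 30 and -1.177 at day 6, and the difference between the times was not tested.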

How the results depend on the processing

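Counts of called genes depended on few libraries, with 2 in iDKO, and depth could be read only approximately. At day 30, 1127 genes were higher and 1114 lower. Leaving out 1 library at a time gave 445 to 1145 higher and 428 to 1095 lower, the lowest values (445 and 428) without iDKO 1. Against the tamoxifen controls alone the counts were 653 and 634. The 91 calls between iDKO and iTKO were 18 to 294 with 1 library left out: 18 without iDKO 1, 294 without iDKO 2, and 57, 39 and 32 without iTKO 1, 2 or 3. Tamoxifen against oil controls gave 2 calls, and 2 to 37 with 1 control left out: 37 without control 2 and 4 without control 3. At day 6, 1680 genes were higher and 895 lower. Median centring gave 765 higher, and leaving out 1 library gave 540 to 1603 higher and 500 to 751 lower: 856 higher without iDKO 1, 648 and 577 without iDKO 2, 540 and 500 without iDKO 3, 750 and 537 without control 3. The share of day 6 calls that were higher was 65.2%, 39.0% with median centring and 49.1% with quantile scaling, and at day 30 it was 50.3%, 50.4% and 51.5%. Calls shared by both times numbered 1340, and 641 to 1336 with 1 library left out: 641 without iDKO 1 at day 30 and 791 without iDKO 3 at day 6.

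Replicate numbers did not pair the day 30 libraries: deviations of same-numbered libraries correlated at 0.258 and -0.010 for iDKO with controls, and at -0.266 and -0.316 for iDKO with iTKO. With replicate number as a block there were 375 higher and 380 lower genes, 8 calls between iDKO and iTKO, and 622 shared calls. The block could not be fitted for tamoxifen against oil controls, where numbers and lines coincide. Of 138 genes named in the text 127 were called, and 0 reversed direction in 3153 gene and setting pairs, of which 68 lost the call and 2 gained one. A gene whose iDKO and control values do not overlap cannot reverse when libraries are left out, so the lack of reversals is no separate support. Calls ended for 12 genes without iDKO 1, 5 without iDKO 2, 9 against the tamoxifen controls alone and 20 with the block, and 112 were kept in every setting other than the block. List counts with a library left out or against the tamoxifen controls alone were added after seeing the data.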

Other observations

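Several of the largest changes at day 30 lay outside the gene groups described above. Sult6b2, a cytosolic sulfotransferase gene, stood at 123 and 101 FPKM in iDKO, against 7.99, 8.48, 6.92, 9.25 and 13.6 FPKM in controls, both iDKO libraries far above the controls (log2 3.56 ± 0.20, limma adjusted p = 8.6e-06). Cfhr2, a gene related to complement factor H, stood at 17.0 and 13.9 FPKM in iDKO, against 0 to 0.3995 FPKM in controls, and since 1 control is listed at 0 no fold is given. Lcn2, which encodes a lipocalin that binds bacterial siderophores, stood at 13.4 and 13.1 FPKM in iDKO, against 0.0824 to 1.11 FPKM in controls. Dock4, an exchange factor for small GTPases, stood at 9.16 and 10.3 FPKM in iDKO, against 0.257 to 0.727 FPKM in controls, and Abcb1b, a P-glycoprotein gene, at 7.98 and 4.72 FPKM in iDKO, against 0.0432 to 0.190 FPKM in controls. Cfhr2, Lcn2, Dock4 and Abcb1b passed the filter only through iDKO, so no test is given for them. Aspa, which cleaves N-acetylaspartate, showed the opposite change, with 12.4 and 13.3 FPKM in iDKO, against 119, 124, 120.2, 101 and 84.8 FPKM in controls, all iDKO values far under the controls (log2 -3.03 ± 0.14, limma adjusted p = 1.5e-06). Ptger4, the prostaglandin E2 receptor EP4, was named after its values were seen and rose to 27.4 and 30.1 FPKM in iDKO, against 8.91 to 13.2 FPKM in controls (log2 1.38 ± 0.15, limma adjusted p = 2.2e-04).

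Other groups are given here by their counts, beside 19.0% of all genes called. Of 28 listed respiratory chain subunit genes, 25 passed the filter on low values, of which 0 rose and 0 fell, while 25 did not pass the test (median log2 0.01). All 26 listed ribosomal protein genes passed the filter on low values, and 1 rose and 0 fell, while 25 did not pass the test (median log2 0.09). Of 11 listed MHC class II genes, 8 passed the filter on low values, of which 0 rose and 0 fell, while 8 did not pass the test (median log2 0.15). By limma, 0 respiratory chain and 0 MHC class II genes were called, with 0 and 0 at an unadjusted p under 0.05. Of 25 listed MHC class I presentation genes, 24 passed the filter on low values, of which 1 rose and 1 fell, while 22 did not pass the test (median log2 0.18). All 26 listed unfolded protein and ER secretory genes passed the filter on low values, and 1 rose and 2 fell, while 23 did not pass the test (median log2 -0.04). Of 24 listed amino acid stress response genes, 21 passed the filter on low values, of which 2 rose and 4 fell, while 15 did not pass the test (median log2 -0.08). Of 20 listed p53 response and apoptosis genes, 18 passed the filter on low values, of which 2 rose and 3 fell, while 13 did not pass the test (median log2 -0.05). Of 20 listed NRF2 and antioxidant genes, 18 passed the filter on low values, of which 3 rose and 1 fell, while 14 did not pass the test (median log2 0.04). Of 20 listed immediate early genes, 15 passed the filter on low values, of which 0 rose and 2 fell, while 13 did not pass the test (median log2 -0.23). The counts for ribosomal protein genes were 0 higher and 0 lower without control 1, without control 2, without control 3, without control 5, without iDKO 1 and without iDKO 2, 2 higher and 0 lower against the tamoxifen controls alone. The counts for MHC class I presentation genes were 0 higher and 0 lower without control 2, without iDKO 1 and against the tamoxifen controls alone, 1 higher and 0 lower without control 5, 0 higher and 2 lower without iDKO 2. The counts for unfolded protein and ER secretory genes were 0 higher and 2 lower without control 2, without control 3 and without iDKO 2, 2 higher and 2 lower without control 4, 0 higher and 1 lower without control 5 and against the tamoxifen controls alone, 0 higher and 0 lower without iDKO 1. The counts for amino acid stress response genes were 1 higher and 1 lower without iDKO 1. The counts for p53 response and apoptosis genes were 2 higher and 1 lower without control 2, without control 3 and without control 5, 0 higher and 1 lower without iDKO 1, 1 higher and 1 lower without iDKO 2. The counts for NRF2 and antioxidant genes were 5 higher and 1 lower without control 1, 1 higher and 1 lower without control 2, without control 3 and against the tamoxifen controls alone, 1 higher and 2 lower without iDKO 1. The counts for immediate early genes were 0 higher and 0 lower without iDKO 1 and without iDKO 2.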
